A study of Mus musculus with 32 samples.

Results

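The genes described here are the 6 classical insulin-like growth factor (IGF) binding proteins *Igfbp1* to *Igfbp6*, the related *Igfbp7*, the ligand *Igf1* and its receptor *Igf1r*, measured in mouse kidney cortex. They were taken by symbol from the table of raw read counts, where 9 of 9 symbols were found among 32544 genes. The genes were chosen by name, in a set proposed with earlier results of these data known, and which measured values led to the proposal is not recorded. No value or threshold entered the rule itself, and the tests on these genes therefore describe these mice and are not independent evidence for the choice.

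The study asked whether nicotinamide riboside (NR), a precursor of the coenzyme NAD+, changes kidney disease in Alport syndrome, in which loss of a type IV collagen chain damages the glomerular filter. Bulk RNA-seq was made from the kidney cortex of 32 mice of the strain C57BL/6J-Col4a3tm1Dec, 4 in each of 8 groups. Alport mice were Col4a3-/-, and control mice carried 1 intact copy of the gene (Col4a3+/-), so that no group was wild type. Males and females of each genotype received either the purified control diet, named vehicle, or the same diet with 0.5% NR by weight, from 10 weeks of age, and all were killed at 25 weeks. The deletion is in every cell of the Alport mice, and on this strain background the kidney disease runs slowly. The 8 groups were vehicle-treated control males, NR-treated control males, vehicle-treated Alport males, NR-treated Alport males and the same 4 groups of females. Each mouse gave 1 library, and p-values measure the spread between these mice.

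IGF1 is a peptide hormone and local growth factor that binds the receptor tyrosine kinase IGF1R and signals through insulin receptor substrates, PI3-kinase and AKT. The binding proteins IGFBP1 to IGFBP6 hold IGFs in plasma and tissue with high affinity. They can keep the ligand from its receptor or deliver it there, and proteases that cut them release it. IGFBP7 binds IGFs weakly and is abundant in vessel walls and basement membranes. In the kidney the axis is known for its part in renal growth, glomerular filtration and the response of tubules to injury, and urinary IGFBP7 is used as a marker of tubular stress.

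Of the 9 genes, 4 lie in closely spaced pairs that point toward each other. *Igfbp1* and *Igfbp3* are on chromosome 11 with 3539 bases between them, and *Igfbp2* and *Igfbp5* are on chromosome 1 with 5457 bases between them (GRCm38). *Igfbp4* is elsewhere on chromosome 11, *Igfbp6* is on chromosome 15, *Igfbp7* on 5, *Igf1* on 10 and *Igf1r* on 7. *Igfbp7* shares 85 of its 1209 merged exon bases with *Polr2b* on the opposite strand. Whether the counting used strand is not given in the sources used here, so that reads from those bases cannot be assigned. The other 8 genes share no exon bases with another gene.

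The 250 bases before the RefSeq transcription start (GRCm38.p6) are printed for the binding proteins that differed between Alport and control mice in both sexes, because these are the upstream regions of the genes on which the comparisons below turn. All are written 5′ to 3′ on the plus strand, on which these genes lie. For *Igfbp1* a stretch of 40 bases is given. Capitals mark matches to the GC box letters GGGCGG in *Igfbp2* and to the TATA box letters TATAAA, read on either strand, in *Igfbp6* and *Igfbp4*.
*Igfbp2*, chr1:72824230-72824479: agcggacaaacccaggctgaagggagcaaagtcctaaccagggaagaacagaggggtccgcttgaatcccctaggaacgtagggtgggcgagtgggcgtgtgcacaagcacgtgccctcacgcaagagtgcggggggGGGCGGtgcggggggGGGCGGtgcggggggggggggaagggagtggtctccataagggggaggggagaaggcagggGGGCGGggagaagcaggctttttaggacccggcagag
*Igfbp6*, chr15:102143936-102144185: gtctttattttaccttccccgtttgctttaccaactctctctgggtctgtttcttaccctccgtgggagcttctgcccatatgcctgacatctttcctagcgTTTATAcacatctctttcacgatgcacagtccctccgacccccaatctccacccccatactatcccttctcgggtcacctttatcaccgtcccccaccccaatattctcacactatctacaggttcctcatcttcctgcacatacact
*Igfbp4*, chr11:99040994-99041243: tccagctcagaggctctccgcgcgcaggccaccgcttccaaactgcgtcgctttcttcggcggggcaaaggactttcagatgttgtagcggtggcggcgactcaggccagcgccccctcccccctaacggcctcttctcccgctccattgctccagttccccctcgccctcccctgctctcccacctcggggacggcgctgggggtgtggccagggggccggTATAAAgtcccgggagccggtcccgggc
*Igfbp1*, chr11:7197669-7197708, with the core letters of the insulin response element in capitals: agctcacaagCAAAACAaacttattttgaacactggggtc
The *Igfbp1* stretch is shown because this gene is known for its control by insulin through such an element.

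The 3 *Igfbp2* matches began between 113 and 37 bases before the start. The *Igfbp4* match began 28 bases before the start, where a TATA box usually lies, and the *Igfbp6* match lay on the minus strand, 148 bases before the start. The *Igfbp1* match, CAAAACA, began 108 bases before the start. Among 32851 RefSeq promoter windows of this length, 32.7% held GGGCGG, 12.4% held TATAAA and 5.56% held CAAAACA on either strand. Of the other members, *Igfbp7* held 4 and *Igf1r* held 2 matches to GGGCGG, and a second *Igfbp2* start had 1 match to the AP-1 letters TGACTCA, found in 4.46% of windows. None of the 5 motifs searched, which included the STAT5-type letters TTCNNNGAA found in 7.02% of windows, matched in the windows of *Igfbp3*, *Igfbp5* or *Igf1*. The promoters of the printed *Igfbp2* start, *Igfbp3*, *Igfbp4*, *Igfbp7* and *Igf1r* held 67.2% to 77.6% G and C, against a median of 52.4% over all windows. The window of the second *Igfbp2* start held 56.4%, and that of *Igfbp6* 49.6%.

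Total counts ran from 16621944 to 27778797 per library, with a median of 22071395. Levels are given as CPM, counts per 1000000 counted reads after each library total was scaled by its TMM factor. These factors ran from 0.831 to 0.997 in vehicle-treated controls and from 1.049 to 1.249 in vehicle-treated Alport mice. *Col4a3*, the mutated gene, was at 49.0 to 83.7 CPM in the 16 Alport mice and at 59.0 to 200.1 CPM in the 16 controls. Of the controls, 2 NR-treated males, replicates 1 and 3, lay within the Alport range. Its ratio to the partner gene *Col4a4*, computed after that overlap was seen, did not overlap between the genotypes, at 0.293 to 0.413 in Alport and 0.537 to 0.822 in control mice. Markers of the proximal tubule, the main cell of the cortex, summed to 20010 to 25990 CPM in the 8 vehicle-treated controls, and no marker in any of the 9 cell type lists was at 0 in all mice of a group.

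Levels between genes are compared as CPM per kilobase of merged exon. *Igfbp7* was the highest member in vehicle-treated control males at a mean of 637 CPM per kb, followed by *Igfbp4* at 348, *Igfbp5* at 50.7, *Igfbp3* at 39.6, *Igf1r* at 16.1 and *Igfbp1* at 13.2. *Igfbp2* at 0.605, *Igf1* at 0.367 and *Igfbp6* at 0.327 CPM per kb made up the lowest tier. Neighbours in this order whose 4 values overlapped were *Igfbp5* and *Igfbp3*, *Igf1r* and *Igfbp1*, *Igfbp2* and *Igf1*, and *Igf1* and *Igfbp6*. The order in vehicle-treated control females was the same down to the second place, and *Igfbp3* and *Igfbp5* stood at 49.4 and 48.65 CPM per kb. In vehicle-treated Alport males *Igfbp2* moved up to a mean of 10.95 CPM per kb, next to *Igf1r* at 11.9 and *Igfbp1* at 8.37, and its values overlapped with those of both. This mean rested on replicate 3 at 25.8 CPM per kb, with replicates 1, 2 and 4 at 6.39, 5.53 and 6.02. Those 3 mice lay below all *Igf1r* values, 10.9 to 13.4 CPM per kb. In vehicle-treated Alport females *Igfbp2* stood at 8.33 CPM per kb, below *Igfbp1* at 8.79, while *Igfbp6* at 1.64 and *Igf1* at 1.59 remained the lowest.

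**Figure D1:**
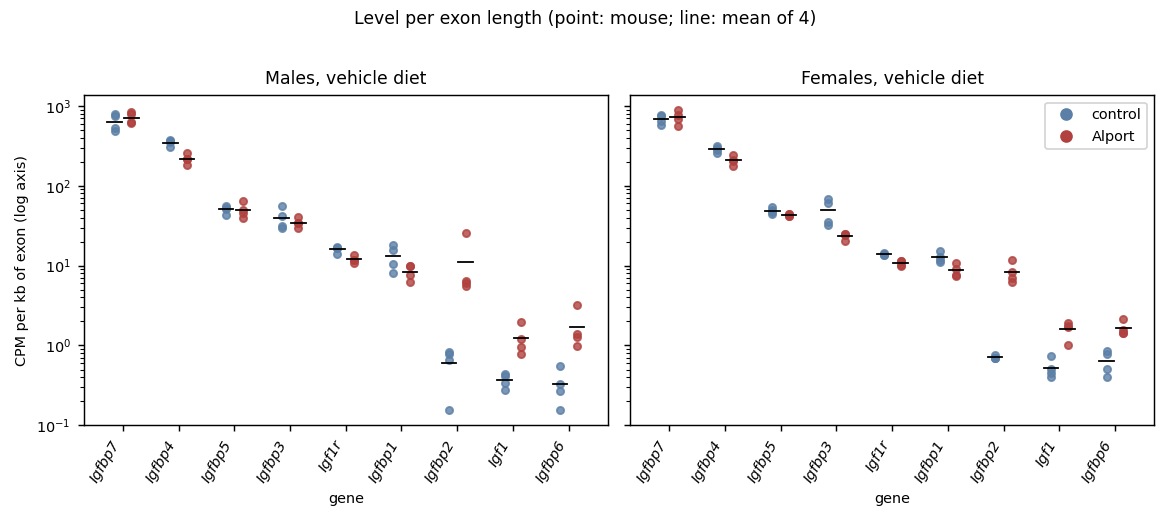
Mean level of each of the 9 genes in CPM per kilobase of merged exon (log axis) in vehicle-treated control and Alport mice of each sex, with points for single mice and lines for means of 4. *Igfbp7* and *Igfbp4* are the highest in every vehicle-treated group, and *Igfbp2* rises out of the lowest tier in Alport mice.

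The first comparison asked how the axis differs between Alport and control kidneys without NR. Vehicle-treated Alport mice had more mRNA of *Igfbp2*, *Igf1* and *Igfbp6* than vehicle-treated controls in both sexes, and less of *Igfbp4* and *Igf1r*. *Igfbp2* changed the most, by 19.1-fold in males and 12-fold in females. *Igfbp1* and *Igfbp3* passed the test in females only, and *Igfbp5* and *Igfbp7* passed it in neither sex. In males 5 of 9 members passed edgeR's quasi-likelihood test (3 higher and 2 lower), in a comparison in which 51.0% of the 15286 genes tested passed (26.8% higher and 24.2% lower). In females 7 of 9 passed (3 higher and 4 lower), against 45.8% of 15709 genes (24.0% higher and 21.8% lower). The share of members that passed was near that of all genes in males and above it in females, which with 9 genes was not tested. The median log2 difference of the 9 genes was 0.06 in males and -0.14 in females, beside medians of all genes within 0.01 of 0. In bulk tissue, fewer cells of a type and less RNA per cell cannot be told apart.

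*Igfbp2*, the binding protein that prefers IGF-II and carries an integrin-binding motif, was at 1.22, 1.54, 1.43 and 0.285 CPM in the 4 vehicle-treated control males and at 11.8, 10.2, 47.7 and 11.1 CPM in the 4 vehicle-treated Alport males. The control levels rest on few reads, 23, 36, 29 and 6 counts, against 251 to 1249 counts in the Alport males. Every Alport male lay above every control male, and replicate 3 stood far above the other Alport males. The log2 difference was 4.25 ± 0.61 (SE, n = 4 per group, adjusted p = 0.000128, edgeR), and without replicate 3 of the Alport males it was 3.37 (adjusted p = 1.04e-05). In females the controls were at 1.29, 1.28, 1.30 and 1.41 CPM and the Alport mice at 11.5, 13.1, 21.7 and 15.3 CPM. The female controls were close together and far below the lowest Alport female, with a log2 difference of 3.58 ± 0.22 (adjusted p = 8.7e-06).

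*Igf1* was at 4.29, 3.34, 2.75 and 4.14 CPM in control males and at 11.97, 7.81, 19.4 and 9.41 CPM in Alport males on vehicle. The groups did not overlap, and Alport replicate 3 was again the highest. The mRNA of the ligand was 3.55-fold higher, a log2 difference of 1.83 ± 0.27 (adjusted p = 0.000178). In females control mice were at 4.51, 5.04, 7.22 and 3.96 CPM and Alport mice at 17.3, 9.96, 18.7 and 16.9 CPM, again without overlap, and the log2 difference was 1.63 ± 0.23 (3.09-fold, adjusted p = 0.000302).

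*Igfbp6*, which also prefers IGF-II, had few reads, with 3 to 103 counts per mouse over all 32 libraries. Control males on vehicle were at 0.371, 0.171, 0.295 and 0.618 CPM and Alport males at 1.54, 1.42, 3.55 and 1.09 CPM. Replicate 3 was the highest Alport male here as well, and no Alport male overlapped with the controls. The log2 difference was 2.47 ± 0.48 (5.53-fold, adjusted p = 0.0011) and 1.97 without that mouse. Female controls ranged from 0.452 to 0.956 CPM and Alport females from 1.59 to 2.37 CPM, without overlap, and the log2 difference was 1.41 ± 0.29 (2.65-fold, adjusted p = 0.00285). Of the members compared in both sexes, 8 of 9 had the same sign, and 5 passed in the same direction in both.

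**Figure D2:**
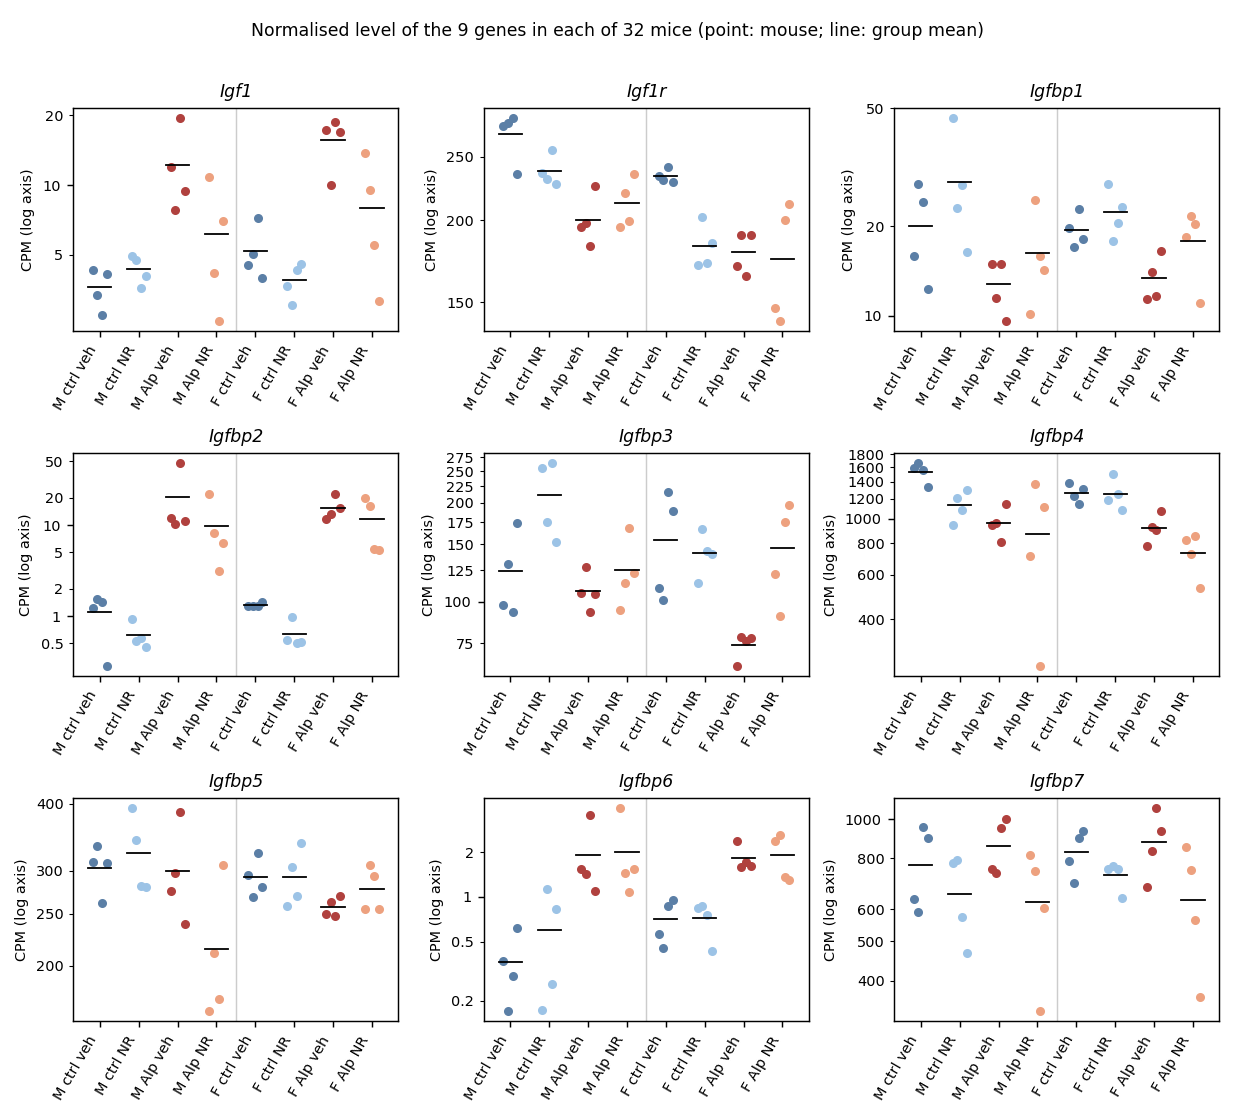
Level of each member in CPM (log axis) in each of the 32 mice, by group, with a line at each group mean. *Igfbp2*, *Igf1* and *Igfbp6* lie higher in all vehicle-treated Alport mice than in the vehicle-treated controls of the same sex, and the NR-treated Alport mice are spread widely.

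*Igfbp4*, the binding protein cut by the protease PAPP-A and regarded mainly as an inhibitor of IGF action, was lower in Alport mice. Control males on vehicle were at 1583, 1659, 1560.1 and 1341 CPM and Alport males at 947, 958, 806 and 1139 CPM. After TMM scaling all 4 Alport males lay below all controls, with a log2 difference of -0.59 ± 0.12 (0.663-fold, adjusted p = 0.00162). Female controls ran from 1144 to 1384 CPM and Alport females from 781 to 1069 CPM, also without overlap (log2 difference -0.43 ± 0.11, adjusted p = 0.0101). As shares of unscaled total counts, *Igfbp4* overlapped between the genotypes in both sexes. Control male replicate 4 had 28192 of 24517876 counts, and Alport male replicate 4 had 26009 of 21763727. In a fit of all 32 mice the female difference no longer passed (adjusted p = 0.169).

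*Igf1r*, the receptor, was at 279, 282, 286 and 235 CPM in control males and at 195, 198, 182 and 226 CPM in Alport males on vehicle. After TMM scaling the groups did not overlap, although control replicate 4 and Alport replicate 4 were near each other. The log2 difference was -0.35 ± 0.09 (0.784-fold, adjusted p = 0.00674). In females the controls were at 229 to 241 CPM and the Alport mice at 165 to 190.05 CPM, and the log2 difference was of the same size, -0.35 ± 0.07 (adjusted p = 0.00304). As shares of unscaled total counts, *Igf1r* overlapped between the genotypes in both sexes. Control male replicate 4 had 4942 of 24517876 counts, and Alport male replicate 4 had 5151 of 21763727. The number of genes whose 4 values did not overlap was large in these comparisons, 50.3% in males and 44.3% in females, beside 5 and 7 of the 9 members.

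*Igfbp1*, the binding protein that insulin represses in the liver, was at 15.95, 27.8, 24.2 and 12.3 CPM in control males and at 14.9, 11.5, 15.0 and 9.63 CPM in Alport males. The male groups overlapped, and the log2 difference of -0.57 ± 0.23 did not pass (adjusted p = 0.0605). It passed without control replicate 4 (adjusted p = 0.0116) or control replicate 1 (0.0488), with DESeq2 (0.0352), without the filter on low counts (0.0436) and with the replicate block (0.0264). Without control replicate 2 the adjusted p was 0.193. In females all 4 Alport values, 11.4 to 16.5 CPM, were below the controls at 17.01 to 22.9 CPM (log2 difference -0.50 ± 0.14, 0.706-fold, adjusted p = 0.0143). As shares of unscaled total counts these female groups overlapped, with 452 of 27778797 in control replicate 2 and 379 of 19281368 in Alport replicate 4. With all 32 mice in the fit, the female adjusted p for *Igfbp1* was 0.134.

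*Igfbp3*, the main carrier of IGFs in plasma, was at 110.3, 101, 217 and 189.6 CPM in control females and at 64.0, 78.5, 75.9 and 77.7 CPM in Alport females on vehicle. The Alport females were close together and below every control, and the log2 difference was -1.03 ± 0.23 (0.491-fold, adjusted p = 0.00398). Males overlapped, with controls at 97.9, 131, 93.4 and 174 CPM, Alport mice at 107, 128, 92.95 and 106 CPM and a log2 difference of -0.12 ± 0.18 (adjusted p = 0.616). The difference between the sexes in this effect was tested as an interaction and did not pass, at -0.94 ± 0.32 on the log2 scale, female minus male (adjusted p = 0.222). *Igfbp5*, a matrix-bound binding protein, differed by 0.06 ± 0.14 in males and -0.14 ± 0.08 in females on the log2 scale, and *Igfbp7* by 0.24 ± 0.17 and 0.12 ± 0.15. Neither passed in either sex, with adjusted p between 0.170 and 0.748.

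**Figure D3:**
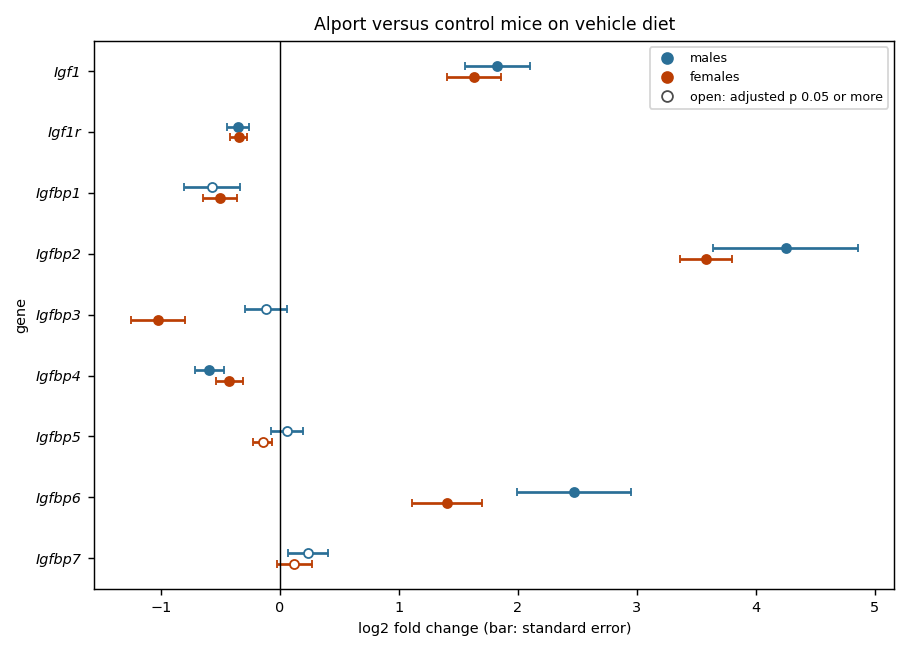
Log2 difference between vehicle-treated Alport and control mice for the 9 genes in males and females, with error bars of 1 SE from the edgeR fit (n = 4 per group) and open points where the adjusted p was 0.05 or more. *Igfbp2*, *Igf1* and *Igfbp6* lie above 0 and *Igfbp4* and *Igf1r* below 0 in both sexes.

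Markers of other cell types moved with these differences. All 10 macrophage markers were higher in Alport mice in both sexes, and their sum ran from 50.2 to 61.1 CPM in control males and from 543 to 756 CPM in Alport males on vehicle, and from 54.7 to 133.5 CPM and from 411 to 791 CPM in females. Fibroblast and myofibroblast markers were higher for 12 of 12 in males and 11 of 12 in females, with sums of 190.1 to 206.8 CPM in control and 1255 to 2016 CPM in Alport males. All 10 injured tubule markers were higher in both sexes, and the 12 proximal tubule markers were all lower, with sums of 8192 to 14200 CPM in Alport males against 21320 to 24820 CPM in control males. Podocyte markers were higher for 7 of 8 in both sexes. The paper reports a lower podocyte density by volume in Alport mice and a larger share of podocyte nuclei in controls, so that this RNA does not count cells. Lymphocyte markers were higher for 9 of 9 in males and 7 of 9 in females, and endothelial markers for 9 of 10 and 5 of 10, while 6 and 5 of 10 distal nephron markers were lower. Of 8 mesangial and smooth muscle markers, 4 were higher and 1 lower in each sex. Among all genes tested, 26.8% were higher and 24.2% lower in males, and 24.0% and 21.8% in females. Alport replicate 3, the male with the highest *Igfbp2*, *Igf1* and *Igfbp6*, also had the highest macrophage sum of its group, 756.1 CPM, against 694.8, 663.7 and 543 CPM in replicates 1, 2 and 4. Its lymphocyte sum, 65.8 CPM, was below the 78.2 CPM of replicate 1. The part of these markers in the differences of the IGF genes was not tested.

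**Figure D4:**
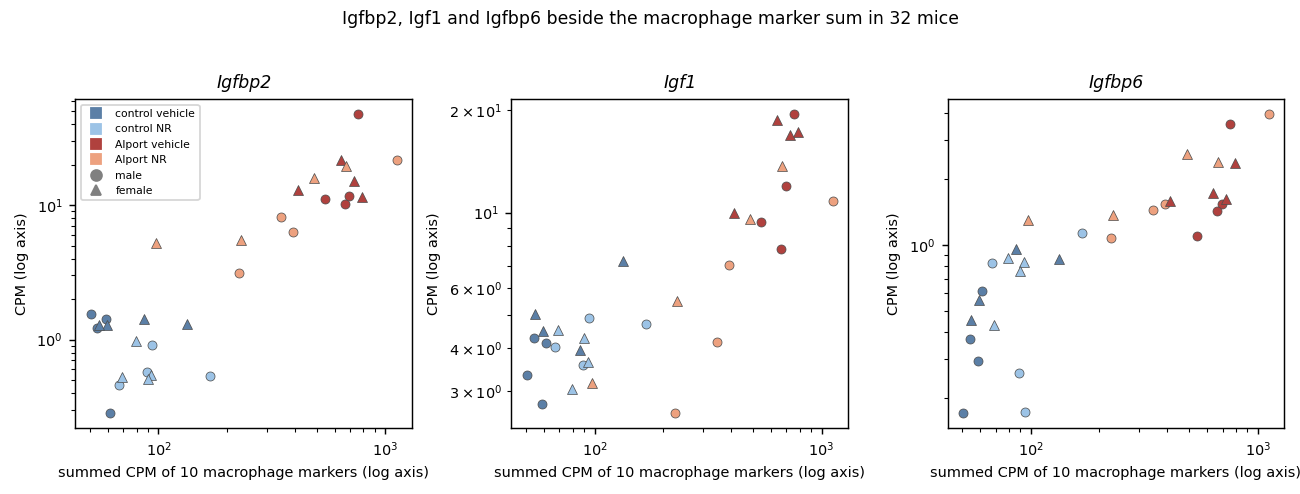
Levels of *Igfbp2*, *Igf1* and *Igfbp6* in CPM against the summed CPM of the 10 macrophage markers in the 32 mice (log axes), coloured by genotype and treatment, with circles for males and triangles for females. Control mice lie at sums of 168.6 CPM or lower, Alport mice reach 1123 CPM, and the NR-treated Alport mice run from 97.04 CPM to that value.

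The rest of the pathway was described from lists of known genes, whose counts stand beside the shares of all genes given above. Among other ligands, receptors and carriers, 5 of 7 genes tested were lower in Alport males and 6 of 7 in Alport females on vehicle, and none was higher. These included the insulin receptor-related receptor *Insrr* (log2 difference -1.22 in males and -1.19 in females), the endocytic receptor megalin *Lrp2* (-1.14 and -1.09), the growth hormone receptor *Ghr* (-0.97 and -0.64) and the acid-labile subunit *Igfals*, which joins IGFBP3 in the large plasma complex (-0.62 and -0.44). *Lrp2* is also one of the proximal tubule markers. The median log2 difference of this list was -0.62 in males and -0.64 in females.

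Among 10 proteases that cut binding proteins and their inhibitors, 8 were higher in Alport males and 6 in Alport females, and none was lower. *Timp1*, an inhibitor of matrix metalloproteinases, was higher by 7.08 and 5.33 on the log2 scale, the metalloproteinase *Mmp2* by 4.36 and 3.62, and *Stc2*, which blocks PAPP-A, by 2.81 and 2.31. *Mmp7* had no counts in the 4 vehicle-treated control males, and against a floor of 3 counts over that group it was at least 95-fold higher in Alport males. In females its log2 difference was 4.37. The median of this list was 2.19 in males and 2.23 in females.

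Of 6 genes of growth hormone signalling, the feedback inhibitor *Socs3*, which many cytokines also induce, was higher in both sexes (log2 difference 3.85 in males and 2.91 in females). *Socs2*, the feedback inhibitor most closely tied to growth hormone, passed in females only, at 0.56 (adjusted p = 0.0389). Of 23 downstream signalling genes, 6 were higher and 11 lower in males, and 7 were higher and 9 lower in females. The shares of all genes were 26.8% higher and 24.2% lower in males, and 24.0% and 21.8% in females. Whether these lists differed from those shares was not tested. *Eif4ebp1*, a repressor of translation that mTOR inactivates, was higher by 1.01 in males and 0.46 in females on the log2 scale. *Mtor* itself was lower (-0.73 and -0.52), as was *Irs1*, the docking protein of the insulin and IGF1 receptors (-0.42 and -0.73).

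The next comparison asked whether NR changed these genes in Alport mice. It shares the vehicle-treated Alport mice with the comparison above. None of the 9 members passed the edgeR test in either sex. In males 0 of 15500 genes passed (percent called 0), 785 genes (5.06%) had an unadjusted p under 0.05, and DESeq2 and the fit of all 32 mice called 62 and 88 genes. In females 75 of 15712 genes passed (0.477%), and 2627 (16.7%) had an unadjusted p under 0.05. *Igf1* had similar differences in both sexes, -1.0 ± 0.44 in males and -0.97 ± 0.38 in females on the log2 scale, neither of which passed (adjusted p = 0.939 and 0.250).

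The NR-treated Alport males were spread widely. *Igf1* was at 10.8, 4.17, 2.59 and 7.02 CPM in NR-treated Alport males, against 7.81 to 19.4 CPM on vehicle. *Igfbp2* was at 21.9, 8.16, 3.15 and 6.34 CPM, against 10.2 to 47.7 CPM on vehicle. Replicate 1 was the highest NR-treated male for both genes and overlapped with the vehicle group, and the other 3 lay below all vehicle-treated Alport males for both genes. The log2 difference of *Igfbp2* was -1.05 ± 0.67 (adjusted p = 0.939). Without replicate 1 it was -1.81 (adjusted p = 0.159), that of *Igf1* was -1.42 (adjusted p = 0.0974), and the number of all genes called went from 0 to 380. *Igfbp6* was at 3.96, 1.45, 1.07 and 1.54 CPM, with replicate 1 again the highest, and its log2 difference went from 0.06 with that mouse to -0.51 without it. The macrophage sums of these mice were 1123, 345.3, 226.6 and 391.4 CPM, and their injured tubule sums were 11720, 4403, 4943 and 3603 CPM. Replicate 1 was the highest in both, and the part of these cells in the spread of the IGF genes was not tested.

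*Igfbp4* in NR-treated Alport males was at 714, 1378, 262 and 1110.4 CPM, so that replicates 1 and 3 lay below, and replicate 2 above, all 4 vehicle-treated Alport males, with replicate 3 the farthest away. The log2 difference was -0.16 ± 0.42. Proximal tubule sums were 7759, 20020, 4767 and 18210 CPM in the same mice, which is the same order as for *Igfbp4*, and their part in it was not tested. *Igfbp5* differed by -0.49 ± 0.23, *Igfbp7* by -0.47 ± 0.27, *Igfbp1* by 0.33 ± 0.27, *Igfbp3* by 0.20 ± 0.18 and *Igf1r* by 0.07 ± 0.12, all with adjusted p over 0.93. No member had groups that did not overlap, against 3.43% of all genes.

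In Alport females *Igfbp3* came closest to passing. It was at 121, 90.6, 175 and 198 CPM with NR and at 64.0 to 78.5 CPM on vehicle, and all 4 NR-treated values lay above the vehicle group, as the groups did not overlap for 9.10% of all genes. The NR-treated values were within or near the range of the vehicle-treated control females, 101 to 217 CPM. The log2 difference was 0.99 ± 0.22 (1.99-fold) with adjusted p = 0.0997. The gene passed with DESeq2 (adjusted p = 0.00143), in the fit of all 32 mice (0.0402) and without NR-treated replicate 2 (log2 difference 1.17, adjusted p = 0.024). It did not pass with limma-voom, RLE scaling, no filter on low counts or the replicate block. Without vehicle-treated replicate 1 the adjusted p was 0.308. The corresponding interaction of NR with genotype in females, 1.11 ± 0.35, did not pass (adjusted p = 0.399).

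*Igf1* in NR-treated Alport females was at 13.7, 9.55, 5.51 and 3.16 CPM, against 9.96 to 18.7 CPM on vehicle. Replicates 3 and 4 were low and replicates 1 and 2 were at or near the vehicle range. *Igfbp2* divided the same mice, with replicates 1 and 2 at 19.7 and 16.1 CPM and replicates 3 and 4 at 5.47 and 5.28 CPM, and its log2 difference was -0.40 ± 0.41 (adjusted p = 0.639). The macrophage sums of these females were 670.1, 485.9, 230.5 and 97.04 CPM in replicates 1 to 4, so that the pair with the lower *Igf1* and *Igfbp2* also had the lower sums. Other sums ranged widely in this group too, from 455.9 to 1398 CPM for fibroblast and myofibroblast markers. Lymphocyte sums were 23.5 to 69.6 CPM and injured tubule sums 3931 to 9455 CPM. The part of any of these cells in the split was not tested. The other members differed by 0.42 ± 0.21 (*Igfbp1*), -0.32 ± 0.16 (*Igfbp4*), 0.12 ± 0.10 (*Igfbp5*), 0.07 ± 0.29 (*Igfbp6*), -0.47 ± 0.24 (*Igfbp7*) and -0.02 ± 0.15 (*Igf1r*). The sign was the same in males and females for 7 of the 9 genes. No gene of the ligand, protease, growth hormone or downstream lists passed in NR-treated Alport mice of either sex. In the same females, 6 of 9 genes known to respond to the fatty acid receptor PPARα passed and all 6 were higher, while 0 of 9 passed in males. The median log2 difference of this list was 2.05 in females and 1.77 in males, and its summed CPM did not overlap in males either, at 828.5 to 1137 CPM on vehicle and 2498 to 6944 CPM with NR.

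**Figure D5:**
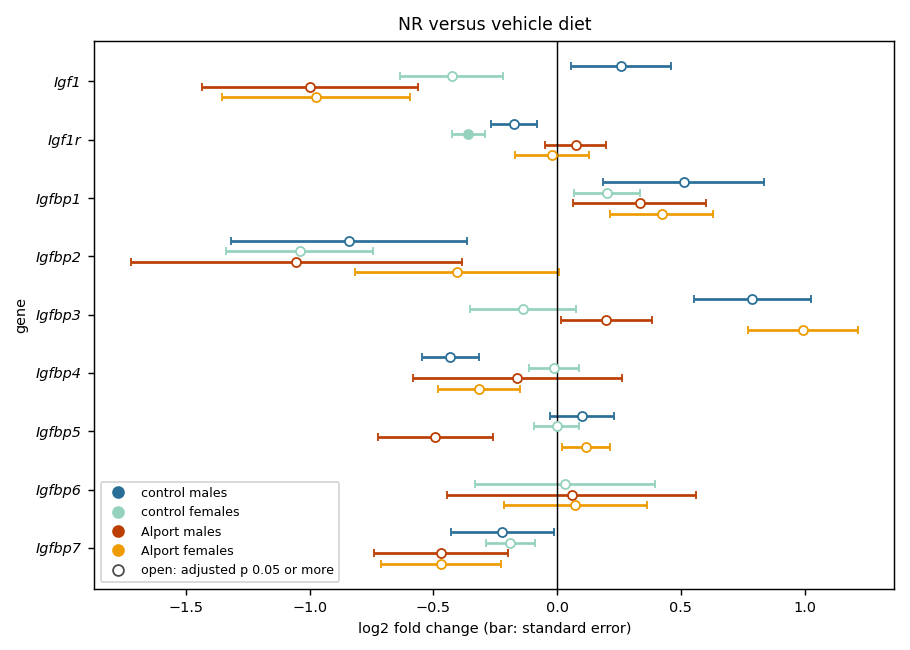
Log2 difference between NR-treated and vehicle-treated mice for the 9 genes in Alport and control mice of each sex, with error bars of 1 SE from the edgeR fit (n = 4 per group) and open points where the adjusted p was 0.05 or more. *Igf1r* in control females is the 1 difference that passed, and *Igfbp6* in control males had too few counts to be tested.

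In control mice NR was compared with vehicle in the same way, and these comparisons share the vehicle-treated controls with the comparison of genotypes. In control males 0 of 8 members tested passed, while 666 of 14696 genes did (4.53%) and 3399 had an unadjusted p under 0.05 (23.1%). *Igfbp6* had too few counts for this test. *Igfbp3* was at 256, 175, 264 and 152 CPM with NR and at 93.4 to 174 CPM on vehicle, so that replicate 4 of the NR-treated males was within the vehicle range. Its log2 difference was 0.79 ± 0.24 (adjusted p = 0.0842). *Igfbp4* was at 947, 1206, 1082.5 and 1293.5 CPM with NR, all below the vehicle range of 1341 to 1659 CPM, in a comparison in which 13.3% of genes did not overlap, and its log2 difference was -0.43 ± 0.11 (adjusted p = 0.0598). DESeq2 called both genes (adjusted p = 0.0123 for *Igfbp3* and 0.00389 for *Igfbp4*), and both passed in edgeR without NR-treated replicate 4 (0.0274 and 0.0293). Neither passed with limma-voom, RLE scaling, no filter, the replicate block or all 32 mice in the fit. With other mice left out, the adjusted p reached 0.202 for *Igfbp3* and 0.172 for *Igfbp4*. The other members were at -0.84 ± 0.48 (*Igfbp2*), 0.51 ± 0.33 (*Igfbp1*), 0.26 ± 0.20 (*Igf1*), -0.17 ± 0.09 (*Igf1r*), 0.10 ± 0.13 (*Igfbp5*) and -0.22 ± 0.21 (*Igfbp7*). In these NR-treated males 9 of 10 endothelial, 5 of 11 fibroblast, 4 of 10 injured tubule and 3 of 10 macrophage markers were higher. Endothelial sums were 758 to 989 CPM against 506 to 563 CPM on vehicle. Proximal tubule sums were 14100, 22500, 16480 and 26430 CPM in NR-treated replicates 1 to 4, the same order of mice as for *Igfbp4*, against 21320 to 24820 CPM on vehicle. The part of these markers in the values of the IGF genes was not tested.

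In control females *Igf1r* was the 1 member that passed, where 6.18% of 14951 genes passed (3.91% higher and 2.27% lower). It was at 171, 202, 172 and 184 CPM with NR and at 229 to 241 CPM on vehicle. No NR-treated female overlapped with the vehicle group, and the log2 difference was -0.36 ± 0.07 (0.780-fold, adjusted p = 0.012). In the fit of all 32 mice it did not pass (adjusted p = 0.230). *Igfbp2* was at 0.543, 0.976, 0.505 and 0.525 CPM with NR and at 1.28 to 1.41 CPM on vehicle, without overlap. These levels rest on few reads, 11, 19, 8 and 11 counts with NR and 30 to 34 counts on vehicle. Its log2 difference of -1.04 ± 0.30 did not pass (adjusted p = 0.0580). *Igfbp2* passed with DESeq2 (0.0443) and without NR-treated replicate 2 (-1.32, adjusted p = 0.0362). Without NR-treated replicate 1 the adjusted p was 0.143. *Igf1* was at -0.43 ± 0.21 (adjusted p = 0.251), *Igfbp1* at 0.20 ± 0.13, *Igfbp3* at -0.14 ± 0.21, *Igfbp6* at 0.03 ± 0.37 and *Igfbp7* at -0.19 ± 0.10, while *Igfbp4* and *Igfbp5* were 0.992-fold and 0.999-fold. The 2 members without overlap compare with 14.4% of all genes. In these females 1 other ligand, *Igf2*, was higher with NR (log2 difference 1.79, adjusted p = 0.00901) and *Insrr* was lower (-0.38, adjusted p = 0.0126).

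Among the protease list, the binding protein protease *Htra1* was lower with NR in controls of both sexes, by -0.84 on the log2 scale in males and -0.50 in females, and *Timp1* was higher in males (2.92). *Socs3* was higher in control males (1.88). None of the 23 downstream genes passed in NR-treated controls. Of the genes that respond to PPARα, 8 of 9 were higher in each sex, with *Cyp4a14*, a fatty acid hydroxylase, higher by 5.89 in males and 1.72 in females on the log2 scale.

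Between the sexes, vehicle-treated control mice differed at 31.7% of 14990 genes (15.9% higher and 15.8% lower in females) and at 1 member. *Igfbp4* was lower in females by -0.26 ± 0.08 on the log2 scale (adjusted p = 0.0381), with 1144 to 1384 CPM in females and 1341 to 1659 CPM in males. The groups overlapped, and the call was lost in the fit of all 32 mice (adjusted p = 0.493), with the replicate block (0.0623) and without any 1 of male replicates 1, 2 and 3 or female replicates 2, 3 and 4 (0.0592 to 0.0949). Female minus male, *Igf1* was at 0.54 ± 0.22 (adjusted p = 0.0790), *Igfbp6* at 0.98 ± 0.43 (0.105) and *Igf1r* at -0.19 ± 0.07 (0.0664). *Igf1r* passed with DESeq2 (0.0323) and without male replicate 4 (-0.25, adjusted p = 0.0129), and its adjusted p was 0.145 without male replicate 1. The remaining members were at -0.02 ± 0.21 (*Igfbp1*), 0.26 ± 0.39 (*Igfbp2*), 0.34 ± 0.25 (*Igfbp3*), -0.04 ± 0.09 (*Igfbp5*) and 0.13 ± 0.15 (*Igfbp7*), with adjusted p from 0.331 to 0.945. None of the 9 members had groups that did not overlap, against 32.1% of all genes. *Igf2*, the other IGF ligand, was higher in females by 4.22 on the log2 scale (adjusted p = 2.99e-05) and *Igfals* by 0.89, while *Ghr* was lower by -0.52.

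Whether the effect of genotype differed between the sexes, and whether the effect of NR differed between the genotypes, was tested with interaction terms over 16 mice each. No member passed any of the 3 tests. The test of sex and genotype called 46 of 16152 genes (0.285%, by adjusted p and a difference of at least 2-fold), and its values for *Igfbp2* and *Igfbp6* were -0.70 ± 0.74 and -1.10 ± 0.58, female minus male (adjusted p = 0.490 for *Igfbp6*). The tests of NR and genotype called 0 of 15800 genes in males (percent called 0, with 1398 or 8.85% at an unadjusted p under 0.05, 18 by DESeq2 and 1 in the fit of all 32 mice) and 0 of 16064 in females (percent called 0, with 1521 or 9.47% at that p and 30 by DESeq2). In males *Igf1* was at -1.27 ± 0.51, Alport minus control (adjusted p = 0.515). It passed without NR-treated Alport replicate 1, at -1.69 (adjusted p = 0.0455), and its adjusted p was 0.872 without vehicle-treated Alport replicate 3.

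The genes whose pattern over the 8 group means was most like that of each member were found by the root mean square difference of centred log2 CPM, among 16469 genes. *Igf1r* was nearest to *Impa1* (0.074), *Igfbp1* to *Slc51b* (0.067) and *Dhrs3* (0.073), *Igfbp4* to *Evc* (0.071) and *Zfp871* (0.074), and *Igfbp6* to *Kirrel* (0.077) and *Srgap1* (0.108). *Igfbp5* was nearest to *Zfp763* and *F8*, both at 0.088, *Igfbp7* to *Ccnb2-ps* (0.078) and *Gm4924* (0.080), and *Igfbp3* to *Spatc1* (0.133) and *Snai3* (0.155). *Igf1* was nearest to the mitotic spindle gene *Aspm* (0.134) and to *Lmntd1* (0.139). For *Igfbp2* the first gene was *Nkd2* at 0.407 and the next *Adgra1* at 0.440. The measure grows with the spread of the member itself, and the SD of the 8 means was 1.88 for *Igfbp2* and 0.181 to 0.839 for the other members. Among the members themselves, the closest pair was *Igfbp1* and *Igfbp3* at 0.206, which are also neighbours on chromosome 11, followed by *Igfbp5* and *Igfbp7* at 0.228. The neighbours *Igfbp2* and *Igfbp5* on chromosome 1 were not close in this measure, as *Igfbp2* differed between genotypes by over 10-fold and *Igfbp5* passed no test. These are descriptions over 8 means, and all genes share the same 32 libraries.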

How the data were processed

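Kidney cortex RNA was measured as polyA RNA-seq in 32 mice. The deposited table holds raw read counts per gene, which the authors made with BioJupies, and the authors also deposited a table of log10(CPM + 1), which was recomputed from the counts (largest difference 8.88e-16) and not used further. The submitters' processing notes name mm10. The aligner, annotation and strand setting are not given in the sources used here.

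Each comparison was fitted in edgeR 4.0.16 by its quasi-likelihood F test, after filterByExpr at 10 counts and with TMM factors, on its 8 mice (R 4.3.3) and interactions on 16. P-values were adjusted over all genes tested by Benjamini-Hochberg, with a threshold of 0.05. The test of sex and genotype also asked for a 2-fold difference. SE was worked back from the test, as the absolute log2 fold change divided by the square root of the quasi-likelihood F statistic. Levels are CPM scaled by TMM over all 32 mice. Exon lengths came from the GRCm38 annotation and promoters from RefSeq. Alternatives were DESeq2 1.42.0, limma-voom (limma 3.58.1), RLE scaling, no filter, 1 fit of all mice, a replicate block, and leaving out each mouse. The scripts were tested on simulated data.

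Groups came from the labels, which number mice 1 to 4 without saying that equal numbers share a litter. The paper reports that litters were balanced over the treatment groups, but the litter of each mouse is not given. Deviations of same-numbered mice correlated at -0.167 to 0.262 over 28 pairs, 5 of them over 0.1, which cannot exclude shared litters. The numbers were not treated as pairs in the main fits, and the replicate block was run as an alternative. Libraries of 1 group differed by more than sampling noise (chi-square per degree of freedom 7.96 or higher in 48 pairs). The members and lists were chosen with earlier results of these data known. All members were named. Of each pathway list, up to 4 genes that passed in either sex were named by mean absolute log2 fold change, as were the nearest genes by pattern, and further genes were named after their values were seen. Depth is the total count per library. Some genes that this rule would name are not reported here.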

Additional observations from a re-analysis of the deposited data

Results flagged for a closer look

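In 7 of the 72 sets of 4 mice (9 genes in 8 groups), 1 mouse stood apart from the other 3 by Dixon's test, which chance does in about 1 in 20 sets. *Igfbp2* did so in 3 groups. Replicate 3 of the vehicle-treated Alport males was at 47.7 CPM, with the others at 10.2 to 11.8 CPM. Replicate 4 of the vehicle-treated control females was at 1.41 CPM, with the others at 1.28 to 1.30 CPM. Replicates 1 to 4 had 30, 34, 33 and 31 counts, so that this gap lies within sampling noise. Replicate 2 of the NR-treated control females was at 0.976 CPM, or 19 counts, with the others at 0.505 to 0.543 CPM, or 8 to 11 counts. *Igfbp6* was flagged in replicate 1 of the NR-treated Alport males, at 3.96 CPM against 1.07 to 1.54 CPM. It was also flagged in replicate 1 of the vehicle-treated Alport females, at 2.37 CPM against 1.59 to 1.72 CPM. *Igf1r* was at 235.1 CPM in replicate 4 of the vehicle-treated control males, with the others at 278.5 to 286 CPM. *Igfbp7* was at 639.5 CPM in replicate 4 of the NR-treated control females, with the others at 754 to 768 CPM.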

How the results depend on the processing

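Members called in the comparisons of genotypes kept their direction in every setting run. All settings scaled the library totals, by TMM, RLE or the DESeq2 size factors, and none used unscaled totals. Without 1 mouse at a time, 5 to 6 members passed in males, beside 6872 to 7965 of all genes, and 7 in females, beside 6049 to 7652. Over all results for single genes, 854 left-out fits kept direction and call, 60 changed sign, 8 gained and 6 lost a call, and in the other settings these numbers were 520, 9, 9 and 5.

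With DESeq2, 1 member passed for NR in Alport females, 2 in control males, 2 in control females and 2 between the sexes. All genes called with DESeq2 numbered 62 for NR in Alport males, 704 in Alport females, 1641 in control males, 1478 in control females, 115 for sex and genotype, and 18 and 30 for NR and genotype in males and females. In the fit of all 32 mice 1 member passed for NR in Alport females, 0 in control females and 0 between the sexes, and 88, 253 and 18 genes were called for NR in Alport males, Alport females and control females, 2799 between the sexes, 4 for sex and genotype and 1 for NR and genotype in males. With the replicate block, *Igfbp1* passed between genotypes in males (adjusted p = 0.0264), 0 members passed between the sexes, and 309 and 371 genes were called for NR in control males and females. Without the filter 116 genes were called for NR in Alport females and 3 for NR and genotype in females. limma-voom called 28 genes for sex and genotype, and 86 were called with no fold limit. Causes were not tested.

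Leaving out 1 mouse at a time gave 0 to 380 genes for NR in Alport males, 9 to 166 in Alport females (0 to 1 member), 74 to 1886 in control males (0 to 2 members), 395 to 809 in control females (1 to 2 members), 3808 to 4380 between the sexes (0 to 2 members), 16 to 59 genes for sex and genotype, 0 to 782 for NR and genotype in males (0 to 1 member) and 0 to 45 in females.

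Values that changed sign were all uncalled. They were -0.027 for *Igfbp5* between genotypes in males and 0.0086 for *Igfbp5* with NR in control females in the fit of all mice, 0.027 (limma-voom) and 0.028 (replicate block) for *Igfbp1* between the sexes, 0.012 (DESeq2 and RLE) and 0.052 (all mice) for *Igf1r* with sex and genotype, -0.031 for *Igfbp1* there with limma-voom, and -0.078 for *Igfbp6* with NR and genotype in females with limma-voom. Leaving out 1 mouse, log2 ranges that crossed 0 were, for genotype in males, -0.23 to 0.090 (*Igfbp3*) and -0.090 to 0.15 (*Igfbp5*), for NR in Alport males, -0.48 to 0.14 (*Igfbp4*) and -0.51 to 0.55 (*Igfbp6*), for NR in Alport females, -0.13 to 0.070 (*Igf1r*) and -0.11 to 0.22 (*Igfbp6*), for NR in control males, -0.012 to 0.17 (*Igfbp5*), and for NR in control females, -0.29 to 0.075 (*Igfbp3*), -0.11 to 0.055 (*Igfbp4*), -0.076 to 0.057 (*Igfbp5*) and -0.14 to 0.22 (*Igfbp6*). Between the sexes they were -0.20 to 0.17 (*Igfbp1*), -0.063 to 0.46 (*Igfbp2*) and -0.10 to 0.0098 (*Igfbp5*), for sex and genotype -0.40 to 0.091 (*Igf1*), -0.071 to 0.10 (*Igf1r*), -0.16 to 0.21 (*Igfbp1*) and -0.93 to 0.17 (*Igfbp2*), and for NR and genotype -0.48 to 0.16 (*Igfbp1*), -0.96 to 0.64 (*Igfbp2*) and -0.074 to 0.56 (*Igfbp4*) in males and -0.17 to 0.19 (*Igfbp6*) in females. *Igfbp6*, with 3 to 103 counts per mouse, is the member whose depth limits it most. *Igfbp2* also had few reads in the control mice, 6 to 36 counts per mouse. Groups of 4 limit all comparisons.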

Other observations

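*Igf2*, the second IGF ligand and not one of the 9 genes, was at 0.92 to 2.83 CPM in the males of all groups. In females it was at 25.2, 42.3, 47.9 and 11.4 CPM in vehicle-treated controls, at 112.6, 89.5, 105.1 and 134.2 CPM in NR-treated controls, at 5.58, 31.0, 12.9 and 4.36 CPM in vehicle-treated Alport mice and at 28.1, 4.26, 1.87 and 3.27 CPM in NR-treated Alport mice. All NR-treated control females lay above all other mice, and the Alport females overlapped with the vehicle-treated control females.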
